A study of Mus musculus with 2 samples.

Results

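Reissner's membrane nuclei were looked for among single-nucleus transcriptional profiles of the stria vascularis (SV) of the adult mouse cochlea, using a rule on 6 genes. A nucleus was a member when its unique molecular identifiers (UMIs, 1 per captured RNA molecule) summed over Slc26a7, Otx2os1, Otx2, Vmo1, Enpep and Cndp1 came to at least 4, with at least 2 of the 6 genes detected, so that members were chosen by their measured UMIs of these genes. The rule found 249 of 3486 nuclei, or 7.14% (exact binomial 95% interval 6.31% to 8.05%). For that reason each comparison of them with the other 3237 nuclei is a description and carries no test.

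The SV was microdissected from CBA/J mice (strain 000656) at 30 days of age and pooled, and the labels give no engineered allele and no agent. There were 2 datasets. For MethFix, nuclei from about 5 to 6 mice by the labels were fixed in methanol after isolation, and for RNAlater, tissue from about 10 mice was kept in RNAlater before nuclei were isolated. The MethFix dataset held 4748 barcodes and 21027671 UMIs (median 3469 per barcode, from 501 to 134970), and the RNAlater dataset 3868 barcodes and 17681824 UMIs (median 3998.5, from 506 to 41153).

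The datasets shared 3323 barcodes, 85.9% of those in RNAlater and 70.0% of those in MethFix, and were treated as 1 sample without replicates. Counts of a shared barcode were taken from RNAlater, so the 3486 nuclei consisted of 2329 RNAlater nuclei and 1157 nuclei found in MethFix only. No p-value is given for that reason. Intervals cover counting error only.

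Reissner's membrane is the thin partition between the scala media, filled with endolymph, and the scala vestibuli, filled with perilymph. It has an epithelial layer facing endolymph and a mesothelial layer facing perilymph. The epithelial layer is known for absorbing sodium through the epithelial sodium channel and for expressing anion exchangers of the SLC26 family, whereas the marginal cells of the SV secrete potassium into the same endolymph. The membrane attaches at the edge of the SV, so that its cells can come along with a microdissected SV.

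The members were of 2 kinds, and Enpep, which encodes glutamyl aminopeptidase, made the difference. The markers of the label are the rule genes themselves, so the members' UMIs of these genes do not test it. In 165 members the rule was still met with Enpep left out of it, and these are called Enpep-independent nuclei. The other 84 members met the rule only when Enpep was counted, and these are called Enpep-dependent nuclei. The 5 remaining genes gave a median of 19 UMIs per Enpep-independent nucleus (from 4 to 102). In the Enpep-dependent nuclei the median was 1, and 62 of the 84 had exactly 1 such UMI, beside a median of 5.5 UMIs of Enpep.

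Enpep was detected in 43.1% of the other nuclei, so that a single UMI of another rule gene could complete the rule. Levels are given as CPM, the UMI counts of a gene per 1000000 UMIs of all genes in a group of nuclei. The level of Enpep was 1244 CPM in 955 marginal-like nuclei, 1217 CPM in the Enpep-dependent nuclei and 350.1 CPM in the Enpep-independent nuclei. Marginal-like, and the other class names used here, mean that at least 60% of the UMIs of 5 lists of SV cell type markers belonged to that class, with at least 4 UMIs and 2 genes, a cut that was set after looking at the data.

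The 6 marginal cell markers (Kcnq1, Kcne1, Esrrb, Atp13a5, Abcg1 and Heyl) gave a median of 41.5 UMIs per Enpep-dependent nucleus and 39 per marginal-like nucleus. The median was 5 in the Enpep-independent nuclei, of which 85 had at least 4 UMIs and 2 genes of these markers. Kcnq1, which encodes the potassium channel of the marginal cell apical membrane, stood at 2772 CPM in the Enpep-dependent, 3096 CPM in the marginal-like and 361 CPM in the Enpep-independent nuclei. Esrrb, a nuclear receptor of marginal cells, followed the same order with 2798, 2937 and 149 CPM. Of the 84 Enpep-dependent nuclei, 69 had at least 18 marginal marker UMIs and 13 had at most 6, so that this group was itself mixed. Values are therefore given for the Enpep-independent nuclei, and counts and medians of gene lists also for all 249 members. In what follows the Enpep-dependent nuclei are called by their rule and not as Reissner's membrane.

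**Figure D1:**
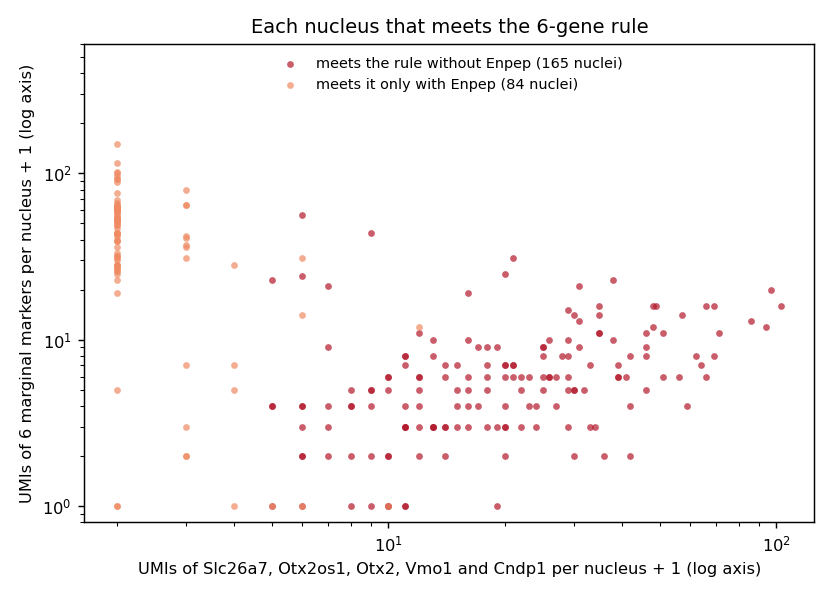
Each point is 1 of the 249 nuclei that met the 6-gene rule. The x axis gives its UMIs of Slc26a7, Otx2os1, Otx2, Vmo1 and Cndp1 and the y axis its UMIs of the 6 marginal cell markers, both with 1 added and on log axes. The 84 Enpep-dependent nuclei stand mostly at the upper left, with a median of 1 UMI of the 5 genes and 41.5 marginal marker UMIs, and the 165 Enpep-independent nuclei at the lower right, with medians of 19 and 5.

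The sums over the 5 genes describe where the rule cut. Among all 3486 nuclei, the sum over the 5 genes without Enpep was 0 in 3116 nuclei, 1 in 165, 2 in 19 and 3 in 9. It was 4 or 5 in 20 nuclei, 6 to 8 in 17, 9 to 11 in 26 and 12 or more in 114, of which 12, 16, 23 and 114 were Enpep-independent. Just inside the rule stood 10 nuclei with 4 UMIs of the 6 genes, all with Enpep and none of them Enpep-independent, and just outside it stood 14 nuclei with 3 UMIs. A further 688 nuclei had at least 4 UMIs from Enpep alone and were left out because the rule asks for a second gene. All 6 genes were detected in 14 nuclei and at least 5 of them in 54.

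The rule genes themselves show what chose the members. Slc26a7, a chloride and iodide transporter with anion exchange activity, stood at 2192 CPM (exact Poisson 95% interval 2071 to 2319) in the Enpep-independent nuclei. It stood at 33.9 CPM in the Enpep-dependent and 3.05 CPM in the other nuclei. Otx2, which encodes a homeodomain transcription factor of the developing head and eye, stood at 316 CPM against 0.938 CPM in the other nuclei, and 0 UMIs were counted in marginal-like, basal-like and root-like nuclei. Otx2os1, a long non-coding RNA that overlaps Otx2 on the opposite strand, reached 1325 CPM against 1.02 CPM. The other nuclei and all classes leave out members. Marginal-like nuclei held a median of 5 Enpep UMIs, so that 1 UMI of a second rule gene could make such a nucleus a member. The marginal cut was met by 61 Enpep-dependent and 8 Enpep-independent nuclei. Low values of the rule genes in the marginal-like class were therefore limited by the rule itself.

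Cndp1, which encodes carnosine dipeptidase, reached 3171 CPM against 7.19 CPM, and Vmo1, which encodes a homologue of a vitelline membrane outer layer protein, 89.8 CPM against 0.782 CPM. Slc26a7 was detected in 93.9% of the Enpep-independent nuclei, Cndp1 in 94.5%, Otx2os1 in 82.4%, Otx2 in 58.8%, Enpep in 52.1% and Vmo1 in 21.8%. Slc26a7 was detected in 1.26% of the intermediate-like nuclei, whose median depth was 4516.5 UMIs against 3262 in the Enpep-independent nuclei. After thinning of each nucleus to 1000 UMIs, the shares in Enpep-independent and intermediate-like nuclei were 78.1% and 0.202%. The intermediate-like class leaves out members, of which 8 Enpep-independent and 6 Enpep-dependent nuclei met its marker cut, so that its share was itself limited by the rule and is no independent measure of free RNA.

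Otx2 lies on chromosome 14 at 48657677 to 48673819 (GRCm38, minus strand) and Otx2os1 at 48668708 to 48870683 (plus strand), and how reads of overlapping genes were assigned by strand is not given in the sources used here. OTX2 binds the letters TAATCC as its known homeodomain motif. TAATCC, or its reverse complement GGATTA, was searched in RefSeq promoter windows from 250 bases before to 50 bases after each annotated start. Windows were found for 3 of the 6 rule genes, and 2 of these held the motif, against 8.14% of all genes with a window. The bases before the start are shown for both, 5′ to 3′ along the gene's strand, with the motif in capitals, as examples of rule genes whose window held it. For Otx2 the stretch is chr14:48665110-48665359 and belongs to 1 of its 4 windows, and for Vmo1 it is chr11:70514617-70514866, both on the minus strand of GRCm38.p6.
Otx2: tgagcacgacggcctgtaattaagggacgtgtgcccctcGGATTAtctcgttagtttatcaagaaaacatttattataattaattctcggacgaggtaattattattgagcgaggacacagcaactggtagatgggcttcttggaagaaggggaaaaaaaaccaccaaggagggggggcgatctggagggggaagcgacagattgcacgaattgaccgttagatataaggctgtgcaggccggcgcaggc
Vmo1: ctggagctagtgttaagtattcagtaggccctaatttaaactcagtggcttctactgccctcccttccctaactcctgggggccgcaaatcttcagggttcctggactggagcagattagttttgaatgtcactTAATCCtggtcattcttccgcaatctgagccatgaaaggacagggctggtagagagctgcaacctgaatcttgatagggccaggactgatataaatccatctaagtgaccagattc
The motif began 211 bases before the start in Otx2 and 116 bases before it in Vmo1. Among the 20 leading genes described further on, 14 had a window and 1 held the motif (Cacna1c). A match is a string of letters and not a measured binding site.

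The members were unevenly spread over the datasets. They made up 9.57% of RNAlater nuclei (223 of 2329) and 2.25% of the nuclei found in MethFix only (26 of 1157). Enpep-independent nuclei made up 6.44% (5.48% to 7.51%) and 1.30% (0.727% to 2.13%). The nuclei found in MethFix only are those left after the shared barcodes were assigned to RNAlater, and their median depth was 2343 UMIs among the other nuclei, against 4769 in RNAlater, so that these shares do not compare the 2 ways of preservation. Among 2280 shared barcodes within the limits of both matrices, the rule without Enpep was met in 143 by the RNAlater counts and in 138 by the MethFix counts, and all 138 were among the 143. With Enpep counted, the same barcodes gave 214 and 187, of which 173 were shared. In these barcodes the 2 matrices had, gene by gene, a median of 88.7% of the UMIs of the shallower count in common (quartiles 86.2% and 90.1%), and the matrices were not used as replicates.

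The Enpep-independent nuclei had a median of 1597 detected genes and 0.246% mitochondrial UMIs, against 1868 genes and 0.658% in the other nuclei. When nuclei were thinned to 1000 UMIs, the medians were 690 genes (151 nuclei) and 669 genes (2994 nuclei). The 15 Enpep-independent nuclei found in MethFix only had a median of 2.17% mitochondrial UMIs, and the 150 in RNAlater 0.218%.

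Genes that the rule did not use also placed these nuclei together. In 30 principal components computed without the 6 rule genes, the 20 nearest neighbours of an Enpep-independent nucleus were, by the median, 100% Enpep-independent (quartiles 90% and 100%), and in 149 of the 165 more than 50% were. For the Enpep-dependent nuclei the median was 90% marginal-like neighbours (quartiles 27.5% and 95%) and 10% members. A further 18 nuclei outside the rule had mostly Enpep-independent neighbours. These components were computed on the same nuclei, so the placement describes the members and does not test them.

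Of 10463 genes with at least 100 UMIs, 502 (4.80%) were higher by 2-fold or more in the 249 members than in the other nuclei and 1250 (11.9%) were lower. For the 165 Enpep-independent nuclei the counts were 748 (7.15%) higher and 2336 (22.3%) lower. The rule used this contrast, so nothing is read from the counts. The median log2 ratio over all genes tested was -0.08 for the members and -0.25 for the Enpep-independent nuclei, which is the background for the gene lists.

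Leading genes were ranked among genes outside the rule with at least 50 UMIs in the members. They also had to be above 2-fold both in RNAlater and in the nuclei found in MethFix only. Under these limits, the 20 genes with the highest ratio of members to other nuclei included secreted proteins, enzymes, ion-handling proteins and non-coding RNAs. Scnn1b, with a members' log2 ratio of 5.69, was not among these 20. Of the 20, 17 were also among the 20 highest of the Enpep-independent nuclei. Among these 20, which leave out the rule genes, Tmem72 led with a log2 ratio of 8.01 (exact binomial 95% interval 7.38 to 8.71). Tmem72 encodes a membrane protein (chromosome 6, 116679063 to 116716913, minus strand). Its level was 794 CPM in the Enpep-independent nuclei of RNAlater, 482 CPM in those found in MethFix only and 1.64 CPM in the other nuclei. It was detected in 75.8% of Enpep-independent nuclei and 0.194% of intermediate-like nuclei. Within RNAlater the members' log2 ratios of the 20 genes ran from 4.95 (Papss2) to 8.17 (Tmem72), and within the nuclei found in MethFix only from 2.93 (Fap) to 7.76 (Crhbp), leaving out Papss2, which had 0 UMIs in the members there. Unless stated otherwise, ratios of the leading genes given from here on are those of the Enpep-independent to the other nuclei.

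Among secreted and signalling proteins, Dkk2, a Wnt antagonist, stood at 5351 CPM in RNAlater and 1512 CPM in MethFix only, against 16.4 CPM in the other nuclei, with a log2 ratio of 8.26 (8.06 to 8.47). Spindle-like nuclei, for which Dkk2 is itself a marker in the list used, held 504 CPM of it. Crhbp, which encodes the binding protein of corticotropin-releasing hormone, stood at 1069.8 and 482 CPM against 3.91 CPM (log2 ratio 8.03, 7.61 to 8.48). Sema3a, a repellent axon guidance cue, stood at 866 and 416 CPM against 10.1 CPM (6.36). Lgi1, which encodes a secreted synaptic protein, had 123 UMIs in the Enpep-independent nuclei and 9 in all 3237 other nuclei. It was ranked among the 20 of the Enpep-independent nuclei and not among the 20 of the members. The latter ranking also rested on the limits given above, so this absence does not mean a low ratio in members.

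Enzymes of several pathways were among the leading genes. Bbox1, the last enzyme of carnitine synthesis, stood at 522 CPM in RNAlater and 43.8 CPM in MethFix only, against 1.72 CPM (log2 ratio 8.13). Sptlc3, a subunit of the enzyme that starts sphingolipid synthesis, reached 962 CPM in all Enpep-independent nuclei against 8.05 CPM (6.90). Hs3st5, a heparan sulfate sulfotransferase, reached 614 CPM against 5.31 CPM (6.85), and Papss2, which makes the sulfate donor for such enzymes, 266 CPM against 5.00 CPM (5.73). Papss2 was at 289 CPM in RNAlater and had 0 UMIs in the 15 nuclei found in MethFix only, where it met the limit of 2-fold asked of the 20 genes only through the floor of 3 counts set for a group at 0. Fap, which encodes a serine protease of the dipeptidyl peptidase family, reached 1693 CPM against 23.0 CPM (6.20), with 1813 CPM in RNAlater and 351 CPM in MethFix only. Sptlc3 was likewise higher in RNAlater (1009 CPM) than in MethFix only (438 CPM). Adam23, a catalytically inactive member of the ADAM family, reached 323 CPM against 2.97 CPM (6.77).

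Cndp2, the cytosolic relative of Cndp1 and its neighbour in the genome, was among the 20 as well. Its level was 899.6 CPM in the Enpep-independent nuclei, 69.8 CPM in the Enpep-dependent and 16.1 CPM in the other nuclei. The log2 ratio to other nuclei was 5.80 for the Enpep-independent nuclei and 5.01 (4.78 to 5.25) for all members. Cndp1 and Cndp2 are related in sequence, and whether reads were split between them is not given in the sources used here.

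Proteins of ion handling and excitability made up another group. Atp2b2, which encodes a plasma membrane calcium pump, was detected in 90.9% of the Enpep-independent nuclei at 1420.2 CPM (1323 to 1523). It stood at 13.8 CPM in the other nuclei and 0.662 CPM in the marginal-like nuclei. Nkain2, whose product interacts with the sodium pump, stood at 7317 CPM against 90.7 CPM, with 1149.7 CPM in root-like nuclei. Cacna1c, the pore of an L-type calcium channel, stood at 1543 CPM in RNAlater and 1074 CPM in MethFix only against 19.9 CPM, and Slc6a15, a transporter of neutral amino acids, at 439.9 CPM against 4.61 CPM.

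Several leading transcripts lie close to each other on chromosome 19. Emx2, a homeodomain transcription factor with known roles in the inner ear (59458372 to 59465357, plus strand), stood at 189 CPM (154 to 228) against 2.42 CPM in the other nuclei. Its antisense partner Emx2os (59425104 to 59458635, minus strand) stood at 1234 CPM against 11.6 CPM. E330013P04Rik, a long intergenic non-coding RNA at a higher coordinate than both (60144675 to 60162591, plus strand), stood at 689 CPM against 3.75 CPM. Root-like nuclei also held Emx2 (72.5 CPM) and Emx2os (377 CPM) but 24.2 CPM of E330013P04Rik, and marginal-like nuclei held 0 UMIs of Emx2. The last of the leading genes, Rapgef4os2, an antisense RNA, had 106 UMIs in the Enpep-independent nuclei and 0 in the Enpep-dependent nuclei.

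**Figure D2:**
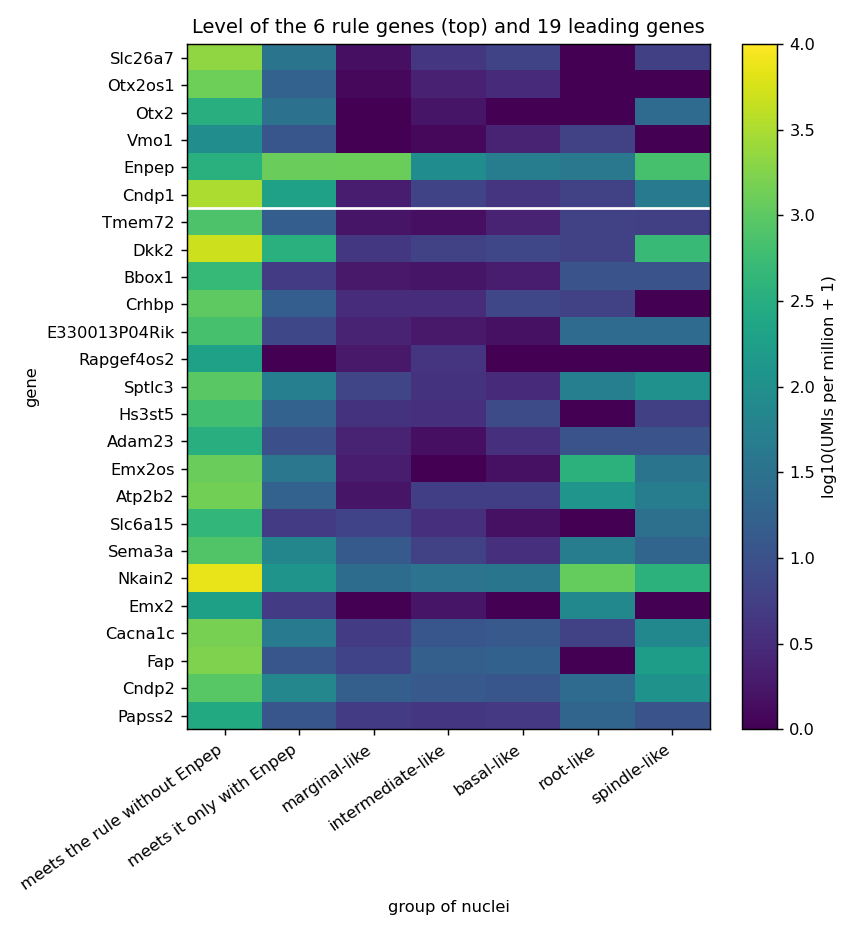
Rows are the 6 rule genes (above the white line) and 19 of the leading genes, columns are groups of nuclei, and colour is log10 of CPM plus 1. The column of Enpep-independent nuclei is bright throughout, for example 7317 CPM for Nkain2 and 768 CPM for Tmem72, while the Enpep-dependent column holds 116 and 14.8 CPM and shares its brightest row, Enpep, with the marginal-like column.

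Among genes of which at least 50 UMIs would be expected in the members at the level of all nuclei, the 10 with the lowest ratio in members stood highest in basal-like nuclei (7 genes) or intermediate-like nuclei (3 genes). Ebf2, a transcription factor gene, had 5 UMIs in the 249 members and 2078 in the other nuclei (log2 ratio -5.06, -6.69 to -3.84), and it stood at 615 CPM in basal-like nuclei. Fstl4, which encodes a follistatin-like protein, had a log2 ratio of -4.30 and stood at 420.2 CPM in intermediate-like nuclei. The long non-coding RNA Gm12153 (-4.49) stood at 2285 CPM in basal-like nuclei. The other 7, which were Plcl1, Insc, Gm6260, Sema7a, Gm44593, Gm830 and Syt1, ranged from -4.86 to -4.18. Within RNAlater the ratios of the 10 ran from -7.41 (Ebf2) to -4.15 (Syt1). Within the nuclei found in MethFix only they were much nearer 0, from -1.88 (Plcl1) to -0.92 (Gm12153) in 8 of the 10 and -0.54 in Gm6260, so that Gm12153, Gm6260 and Gm830 were not past the fold. Syt1 had 0 UMIs in the members there. Without members that also met the rule for another class, the ratios of the 10 ran from -4.57 (Ebf2) to -1.37 (Syt1). Plcl1 stood at -2.05, Gm6260 at -1.59 and Sema7a at -1.54. A group at 0 was set to the floor of 3 counts, so values near the upper end may be upper bounds. Of the 10 lowest of the Enpep-independent nuclei, 3 were shared with these, and the rest included Wnt5b (1 UMI in the Enpep-independent nuclei, log2 ratio -6.05) and Bmp6 (4 UMIs, -5.25).

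Among genes of ion transport, Scnn1b and Atp2b2 stood high in the Enpep-independent nuclei and near 0 in the marginal-like nuclei, whereas Slc12a2 and Kcnma1 stood in the opposite order, as did Kcnq1, which is 1 of the markers that define the marginal-like class. The counts over the lists are against all other nuclei. Over all genes tested, 7.15% were higher and 22.3% lower in the Enpep-independent nuclei, and 4.80% and 11.9% in all members. These shares stand beside the counts of every list that follows. Where a count lies near them, nothing is read from it. Of 15 genes of sodium absorption, 11 were tested, and 2 were higher and 5 lower by 2-fold or more in the Enpep-independent nuclei than in the other nuclei, with a median log2 ratio of -0.96. For all members the counts were 2 and 3 and the median was 0.24. The 2 higher genes were Scnn1b and Prss8, the genes of a sodium channel subunit and of a protease known to activate the channel. Scnn1b reached the UMI limit of a tested gene only with the members' own UMIs included. The counts and medians of this list include Scnn1b, so they rest in part on those UMIs.

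Scnn1b, the beta subunit of the epithelial sodium channel (chromosome 7, 121865038 to 121918514, plus strand), stood at 338 CPM in RNAlater and 43.8 CPM in MethFix only, against 3.44 CPM in the other nuclei. The log2 ratio of Enpep-independent to other nuclei was 6.51 (6.03 to 7.03), and a UMI was found in 48.5% of the nuclei. Marginal-like nuclei held 1 UMI of it, root-like nuclei 67.6 CPM and spindle-like nuclei 57.1 CPM. The partners of the channel were counted in fewer molecules and did not reach the 100 UMIs asked of a tested gene. Scnn1a, the alpha subunit, had 31 UMIs (55.7 CPM, against 1.17 CPM in the other nuclei), and Scnn1g, the gamma subunit, had 10 UMIs (18.0 CPM, against 0.313 CPM).

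The mineralocorticoid receptor gene Nr3c2 stood at 1007 CPM against 695 CPM (log2 ratio 0.53, 0.41 to 0.66), and Prss8 at 39.5 CPM against 16.5 CPM (1.26, 0.56 to 1.90). Atp1b1, a beta subunit of the sodium pump that is abundant in intermediate-like nuclei (2364 CPM), stood at 221 CPM.

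Of 31 genes of anion and acid-base transport besides the rule gene Slc26a7, 22 were tested, with 4 higher, 12 lower and a median log2 ratio of -1.15. For all members the counts were 0 and 5 and the median was -0.03. The 4 higher genes all encode anion transporters or a carbonic anhydrase. Slc26a4, which encodes pendrin, stood at 190.3 CPM against 83.7 CPM (log2 ratio 1.19), with 2420.2 CPM in root-like and 3.31 CPM in marginal-like nuclei. The sodium bicarbonate cotransporter Slc4a4 stood at 52.1 CPM against 19.5 CPM (1.42), the anion exchanger Slc4a3 at 73.6 CPM against 28.9 CPM (1.35), and the cytosolic carbonic anhydrase gene Car13 at 79.0 CPM against 39.4 CPM (1.00). Slc12a2, the sodium, potassium and chloride cotransporter on which potassium secretion by marginal cells rests, was at 844 CPM in the Enpep-independent nuclei, 7884 CPM in the Enpep-dependent and 8636 CPM in the marginal-like nuclei.

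Potassium channels and gap junction genes were mostly low. Of 13 tested genes of 19, 1 was higher and 10 were lower in the Enpep-independent nuclei, with a median log2 ratio of -2.17 (for all members 1, 8 and -2.20). The higher one was Kcnk5, a 2-pore-domain potassium channel gene, at 145 CPM in RNAlater and 0 UMIs in MethFix only, against 9.22 CPM in the other nuclei and 1.10 CPM in the marginal-like nuclei. Root-like nuclei (121 CPM) and spindle-like nuclei (152 CPM) held it at levels whose intervals overlapped its own. Kcnma1, the large-conductance calcium-activated potassium channel, stood at 70.0 CPM against 1533 CPM in marginal-like nuclei. The connexin genes Gjb2 and Gjb6 stood at 59.3 and 55.7 CPM, against 240.3 and 367 CPM in the other nuclei, which include the coupled intermediate and basal cells.

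Of 17 calcium transport genes, 10 were tested, and 2 were higher and 4 lower (median -0.38), against 1 and 3 (-0.31) for all members. Atp2b2 and Trpv4, a calcium-permeable channel gene (183 CPM against 90.0 CPM in the other nuclei, log2 ratio 1.02), were the higher ones. The related calcium pump gene Atp2b1 stood at 619 CPM in the Enpep-independent and 1584 CPM in the marginal-like nuclei, the opposite order to that of Atp2b2. Of 19 purinergic genes, 9 were tested, and 2 were higher, both for enzymes at the cell surface that hydrolyse nucleotides, and 2 lower (1 and 1 for all members). Entpd3 stood at 316 CPM against 16.8 CPM (log2 ratio 4.23, 3.94 to 4.53) and Enpp1 at 44.9 CPM against 21.4 CPM (1.07, 0.41 to 1.66). None of the 10 water channel genes reached 100 UMIs, and together they gave 23 UMIs in the Enpep-independent nuclei.

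**Figure D3:**
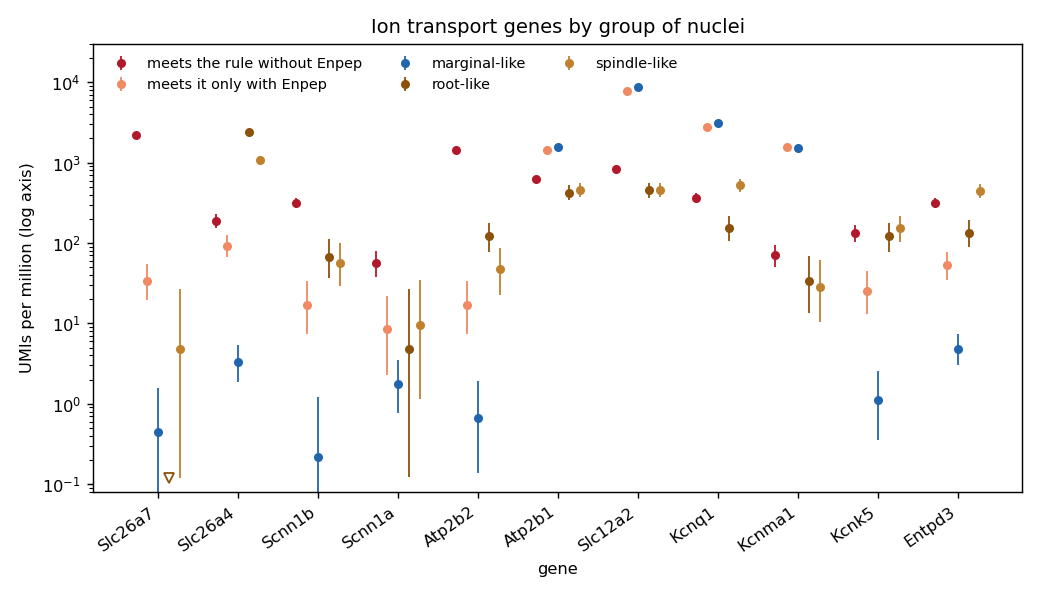
CPM on a log axis for 11 ion transport and related genes in 5 groups of nuclei, with exact Poisson 95% intervals, and an empty triangle for a group with 0 UMIs. Slc26a7, Scnn1b and Atp2b2 stand high in the Enpep-independent nuclei and near 0 in the marginal-like nuclei (Scnn1b 314 and 0.221 CPM), while Slc12a2, Kcnma1 and the class marker Kcnq1 stand high in the marginal-like and the Enpep-dependent nuclei. Slc26a7 is a rule gene, and its level in the marginal-like nuclei was limited by the rule because the class leaves out members.

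Regulators of epithelium were among the higher genes, while the tested genes of mesenchyme were mostly low. Of 16 genes of epithelial identity, 7 were tested, and 3 were higher and 1 lower in the Enpep-independent nuclei (median log2 ratio 0.18). For all members the counts were 3 and 0 and the median 0.58. Over all genes tested, 7.15% were higher and 22.3% lower in the Enpep-independent nuclei. The 3 were regulators of the epithelial state. The transcription factor genes Ovol2 and Grhl2 stood at 244 CPM against 20.9 CPM (3.55, 3.24 to 3.85) and 433 CPM against 81.8 CPM (2.40, 2.19 to 2.61), and the splicing regulator Esrp1 at 244 CPM against 93.2 CPM (1.39). Epcam, an epithelial adhesion molecule, was not past the fold, at 73.6 CPM against 90.0 CPM and 196 CPM in marginal-like nuclei. The 16 genes summed to 1431 CPM in the Enpep-independent nuclei and 738 CPM in all other nuclei. Among the classes, the sum was 1751 CPM in spindle-like, 1000 CPM in root-like and 975 CPM in marginal-like nuclei. Of 18 mesothelial and mesenchymal genes, 8 were tested and none was higher, 7 were lower and the median was -2.45 (for all members 0, 6 and -2.38). The mesothelial genes Msln, Upk3b, Upk1b, Lrrn4 and Wt1 had too few UMIs to be tested. All 18 together gave 30 UMIs in the Enpep-independent nuclei, and 8 of them gave none.

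Junction genes stayed close to the background (16 tested of 25, 3 higher, 3 lower, median -0.14), with 3 higher, 1 lower and a median of 0.33 for all members. The higher ones encode tight junction proteins, namely F11r (124 CPM against 40.6 CPM, log2 ratio 1.61), Tjp3 (41.3 CPM against 14.3 CPM, 1.53) and Cgn (127 CPM against 45.3 CPM, 1.49). Cdh1, the gene of E-cadherin, differed by less than 2-fold (389.6 CPM against 396 CPM). Cdh2, the gene of N-cadherin, had 5 UMIs (log2 ratio -3.85). Cdh3, the gene of P-cadherin, had 47 UMIs against 21 in the other nuclei, too few to be tested.

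Of 25 basement membrane genes, 20 were tested, with 6 higher, 9 lower and a median of -0.42 (for all members 5, 7 and -0.12). The higher ones included Frem2, whose product joins epithelium to the underlying matrix (336 UMIs in the Enpep-independent and 179 in the other nuclei, log2 ratio 5.43, 5.16 to 5.70), and the collagen IV chains Col4a3 (205 CPM against 13.1 CPM, 3.96) and Col4a4 (199 CPM against 30.4 CPM, 2.71). Col4a3 and Col4a4 pair with each other in a collagen network known from epithelial basement membranes. Col4a5, another collagen IV chain of the list, was not past the fold (log2 ratio -0.17). Nid1, a linker of laminin and collagen, was lower, with 3 UMIs in the Enpep-independent nuclei.

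Transcription factors and signals of the developing ear gave the highest median among the 20 lists with tested genes in the Enpep-independent nuclei. Of 36 genes, 22 were tested, and 7 were higher and 5 lower, with a median log2 ratio of 0.43 beside -0.25 over all genes. For all members the counts were 6 and 2 and the median 0.56 beside -0.08, just below the 0.58 of the epithelial identity list. Emx2 was among the higher genes, and it reached the UMI limit of a tested gene only with the members' own UMIs included. The counts and medians of this list include Emx2, so they rest in part on the members' own UMIs. Meis1, a homeodomain cofactor, was detected in 93.9% of the Enpep-independent nuclei at 5492 CPM in RNAlater and 1885 CPM in MethFix only, against 333 CPM in the other nuclei (3.96, 3.89 to 4.03). Lmx1a, a LIM homeodomain factor of the otic vesicle, stood at 2262 CPM against 496 CPM (2.19), with 1178 CPM in marginal-like nuclei. Eya4, a transcriptional coactivator of the inner ear, stood at 1298 CPM against 339 CPM (1.94), and Fgf9, a ligand gene counted here with the ear regulators, at 156 CPM against 14.1 CPM (3.46). Gata3 was lower, at 34.1 CPM against 129 CPM (-1.92). The 36 genes summed to 11647.5 CPM in the Enpep-independent nuclei, of which Meis1 gave 5196 CPM. Among the classes, the sum was 6347 CPM in spindle-like, 5753 CPM in root-like and 4827 CPM in marginal-like nuclei. It was 2146 CPM in intermediate-like and 2156 CPM in basal-like nuclei.

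Lists for the choroid plexus and the retinal pigment epithelium, tissues in which Otx2 is also known to act, gave medians below that of all genes over their tested members. Of 12 tested choroid plexus genes 2 were higher (Lmx1a and Otx1) and 4 lower, with a median of -0.69 (for all members 1, 3 and -0.46). Of 7 tested genes of the retinal pigment epithelium none was higher and 4 were lower (median -1.10), against 0 and 3 (-0.98) for all members. Some members were too low to be tested. Ttr, the transthyretin gene of both tissues, had 21 UMIs in the Enpep-independent nuclei and 7 in the other nuclei, and 76.2% of the 21 came from 5 nuclei. Slc6a20a, a transporter gene of the second list, had 22 UMIs against 14, and Cdh3, also of that list, 47 against 21, whereas Folr1, a choroid plexus gene, had none in the Enpep-independent nuclei and 4 in the others.

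**Figure D4:**
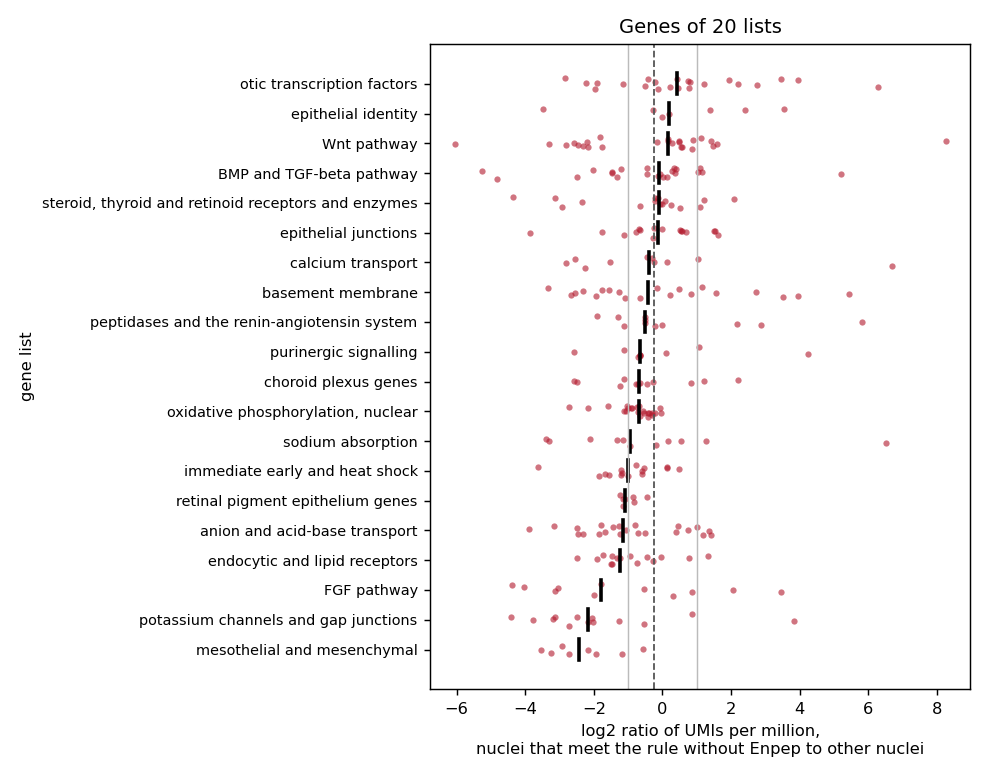
Each point is a tested gene of 1 of 20 lists, placed on the x axis by its log2 ratio of CPM in Enpep-independent to other nuclei. A gene such as Emx2 or Scnn1b could reach the UMI limit of a tested gene through the members' own UMIs. Black bars are list medians, the dashed line the median over all genes tested (-0.25) and the grey lines a 2-fold difference. The medians run from 0.43 for the otic transcription factors to -2.45 for the mesothelial and mesenchymal genes, and most lists hold genes on both sides.

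Signalling lists held both higher and lower genes, beside 7.15% higher and 22.3% lower over all genes tested. In the Wnt list (25 tested of 53) 5 were higher and 10 lower, with a median of 0.17 beside -0.25 over all genes (for all members 4, 8 and 0.14). Besides Dkk2 the higher ones were the receptors Fzd3 (102 CPM against 34.0 CPM) and Fzd6 (95.2 CPM against 35.7 CPM), the receptor Lgr4 (260.3 CPM against 119 CPM) and the transcriptional repressor Tcf7l1 (517 CPM against 187 CPM), with log2 ratios from 1.13 to 1.59. Wnt4, with 40 UMIs against 30 in the other nuclei, was too low to be tested. In the BMP and TGF-beta list (22 tested of 37) 4 were higher and 8 lower, with a median of -0.10 (for all members 1, 6 and -0.17). The ligand gene Bmp5 was the highest, at 383 CPM in RNAlater and 153 CPM in MethFix only, against 9.85 CPM (log2 ratio 5.21, 4.88 to 5.54), whereas the related ligand Bmp6 was among the lowest genes. In the FGF list (11 tested of 24) Fgf9 and the receptor gene Fgfr2 (2329 CPM against 554 CPM, 2.07) were higher and 6 genes lower, with a median of -1.79 (for all members 2, 6 and -1.41).

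Peptidases, to which the rule genes Enpep and Cndp1 belong, were listed without these genes, and 11 of 20 were tested, with 3 higher, 3 lower and a median of -0.50 (for all members 3, 2 and -0.31). Over all genes tested, 7.15% were higher and 22.3% lower in the Enpep-independent nuclei, and the count of lower peptidase genes lay near that share. The higher peptidase genes were Cndp2, Dpp4 and Mme. Dpp4, an ectopeptidase, stood at 765 CPM against 171 CPM (2.16) and at 1670.0 CPM in spindle-like nuclei. Mme, the gene of neprilysin, stood at 224 CPM against 30.4 CPM (2.88) and at 3.53 CPM in marginal-like nuclei. In the endocytic list (15 tested of 17) 1 gene was higher, the adaptor Dab2 (80.8 CPM against 32.1 CPM, 1.33), and 8 lower (0 and 6 for all members). Lrp2, the gene of the endocytic receptor megalin, was detected in 99.4% of the Enpep-independent nuclei at 4356 CPM, below the 6217 CPM of marginal-like nuclei.

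Of 16 tested nuclear receptor and retinoid genes, 3 were higher and 4 lower (median -0.10), against 1 and 2 (0.05) for all members. The higher ones included Esr2, an oestrogen receptor gene, with 21 UMIs (37.7 CPM against 8.83 CPM), and the retinoic acid receptor gene Rarg (187 CPM against 80.2 CPM). Esrrb and Esrrg, receptors of marginal cells, were lower, at 149 and 48.5 CPM against 1135 and 426 CPM. Of 15 tested immediate early and heat shock genes none was higher and 8 were lower, with a median of -1.01, and of 23 nuclear genes of oxidative phosphorylation none was higher and 7 were lower, with a median of -0.69. For all members 1 immediate early or heat shock gene was lower (median -0.36) and 0 genes of oxidative phosphorylation (-0.21). Over all genes tested 22.3% were lower with a median of -0.25, and the counts of lower nuclear receptor and oxidative phosphorylation genes lay near that share. Cell cycle genes gave 5 UMIs over the 13 genes in all Enpep-independent nuclei, and none of them was tested.

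The Enpep-independent nuclei were also set against single classes of nuclei. Against marginal-like nuclei, the highest genes of the Enpep-independent nuclei were Atp2b2 (log2 ratio 11.07), Dkk2 (10.48), Scnn1b (10.48), Tmem72 (10.18) and Emx2os (10.13). The lowest included Itga2, the gene of an integrin for collagen, which had 0 UMIs in the Enpep-independent nuclei and 1051 in the marginal-like nuclei (log2 ratio at most -5.43, from a floor of 3 counts over the group), and Rap1gap2 (-5.38). Against the 127 root-like and spindle-like nuclei, the highest were Crhbp (8.74), Nkain3 (8.41), Hs3st5, Dpp6 (7.75) and Tmem72 (7.32). Slc26a4, the pendrin gene, was lower than in these nuclei (log2 ratio -3.19, -3.50 to -2.89), and so was the collagen gene Col1a1 (2 UMIs against 221, all of the latter in spindle-like nuclei). The spindle-like nuclei held 3002 CPM of fibrocyte and bone markers, against 209 CPM in the other nuclei, with a median of 0 UMIs per nucleus, so that under 50% of them carried these markers, and their part in the value of Col1a1 was not tested.

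The members varied among themselves. The variance of a gene's counts over that of Poisson counting had a median of 1.43 over 2147 genes with at least 100 UMIs in the members. Malat1 (146) and mt-Rnr2 (80.9) were followed by Dclk1 (45.6), a kinase gene abundant in marginal-like nuclei, Dct (39.7), a pigment gene of intermediate cells, and mt-Cytb (38.7). Nkain2 (36.2), Col8a1 (32.8) and Dkk2 (31.9) had UMIs in 173, 149 and 155 of the 249 members. Within the 165 Enpep-independent nuclei, where they had UMIs in 155, 135 and 144, their values were 20.3, 24.3 and 20.9, and those of Dclk1 and Dct were 26.5 and 41.2. Col8a1, the gene of a collagen VIII chain, stood at 3670.0 CPM in those nuclei against 86.3 CPM in the others. Il1rapl2 and Agbl1, which were high in spindle-like nuclei (1670.0 and 4082 CPM), came from few members, and 95.5% of the Il1rapl2 UMIs of the Enpep-independent nuclei lay in 10 nuclei.

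Markers of other cell types were measured beside these results, and their part in them was not tested. The intermediate cell markers summed to 1584 CPM in the Enpep-independent nuclei and 9733 CPM in the other nuclei, and Dct gave most of the sum, with 51.8% of its 684 UMIs in 5 nuclei. They stood at 786 CPM in RNAlater and 10519 CPM in the 15 nuclei found in MethFix only, and the part of this RNA in the values given for those 15 nuclei was not tested. The marginal markers summed to 1928 CPM against 8572 CPM in marginal-like nuclei, with Atp13a5 the most counted (1239 CPM against 1517 CPM), and in RNAlater alone Esrrb stood at 84.1 CPM.

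The basal cell markers summed to 208 CPM (1006 CPM in the other nuclei) and the root cell markers to 18.0 CPM (114 CPM), with Lgr5 at 0. The spindle cell markers summed to 5570 CPM (390.3 CPM), of which Dkk2 alone gave 5036 CPM. The sums were 73.6 CPM (209 CPM) for fibrocytes and bone, with Ibsp at 0, 12.6 CPM (26.1 CPM) for macrophages, 41.3 CPM (52.4 CPM) for endothelium, mostly Kdr, and 21.5 CPM (62.6 CPM) for pericytes. They were 212 CPM (159 CPM) for Schwann cells, mostly Mbp, 5.39 CPM (73.2 CPM) for neurons, 14.4 CPM (16.4 CPM) for erythroid cells and 393 CPM (261 CPM) for motile cilia, mostly Cfap54. Scrublet marked 12 of the 249 members as doublets, of which 7 were Enpep-independent, and 198 of the 3237 other nuclei.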

How the data were processed

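Nuclei of the SV were measured by 10x single-nucleus RNA-Seq in 2 datasets, MethFix and RNAlater. The authors deposited raw UMI counts per gene and barcode from Cell Ranger 3.0.1 on an mm10 genome, with no normalization. Labels give about 10 mice for RNAlater and 5 to 6 for MethFix, and the study's methods give a lower number for RNAlater. Of 48816 features, 48349 matched GENCODE M21 (GRCm38), from which coordinates were taken.

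Barcodes with at least 200 genes, at most 8000 UMIs and at most 10% of UMIs from symbols starting with mt- were kept, those shared by both matrices with their RNAlater counts only. The 6 rule genes, the lists and the rule for named genes were chosen with earlier results of these data known. Classes were assigned per nucleus (at least 4 UMIs and 2 genes of a class, and 60% of the UMIs of the 5 SV marker lists), a cut set after looking at the data. Near it lay, in or outside each class, 42 and 26 marginal, 53 and 45 intermediate, 118 and 62 basal, 14 and 7 root, and 11 and 8 spindle nuclei, and 546 of the other nuclei stayed unnamed.

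UMIs were summed per group and divided by the group's total. Genes needed 100 UMIs over all nuclei, members included, so that a gene could pass through the members alone. A 2-fold ratio counted as higher or lower. A group at 0 was set to a floor of 3 counts. Intervals of 95% were exact conditional binomial for ratios, exact Poisson for CPM and exact binomial (Clopper-Pearson) for shares. With 1 sample there is no test. Group sums were 556944 UMIs (Enpep-independent), 472505 (Enpep-dependent) and 12794600 (other). Named genes were the rule genes, the 20 highest and 10 lowest by ratio (high ones with at least 50 UMIs in the members and above 2-fold in both sets of barcodes, low ones with at least 50 expected), the first 5 in each direction against marginal-like and against root-like and spindle-like nuclei, the 10 most variable, and list members, of which a few are not reported here. Doublets were scored with Scrublet in scanpy 1.11.5 (expected rate 0.1, 30 components) but not removed, and the caller marked 0.773% of the 2329 RNAlater barcodes and 6.23% of the 3596 MethFix barcodes within the limits. Neighbours were found on 2000 variable genes. TMM factors came from edgeR 4.0.16 in R 4.3.3. Python 3.11.15, numpy 2.4.6, scipy 1.17.1 and pandas 2.3.3 were used, and the ratio code was tested on simulated data.

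Other alternatives were other thresholds, leaving out each rule gene, other doublet, depth and mitochondrial limits, the MethFix matrix first, thinning to 1000 UMIs, other scalings and count filters, and, added after seeing the data, ratios with the rule without Enpep.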

Additional observations from a re-analysis of the deposited data

Results flagged for a closer look

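Barcodes with over 8000 UMIs and at most 10% mitochondrial UMIs were outside the limits and entered no comparison. Of 539 such barcodes, 20 met the rule without Enpep, or 3.71% (exact binomial 95% interval 2.28% to 5.67%). They are given here because they carry the rule genes although no comparison used them. The share without Enpep was 4.73% within the limits. With Enpep counted, 81 of the 539 met the rule, or 15.03% (12.1% to 18.3%), against 7.14% within the limits. Whether these barcodes held more than 1 nucleus was not tested.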

How the results depend on the processing

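The number of members, 249, rested on the choice of genes and on depth. It was 165 without Enpep, 181 without Cndp1 and 226 to 243 without each of the other 4 genes. It was 154 when 6 UMIs and 3 genes were asked for, 63 without members that also met the same kind of rule for another class, 330 of 4025 nuclei without the upper UMI limit, and 129 of 3227 nuclei after thinning to 1000 UMIs, of which 126 were Enpep-independent. Leaving out members of another class removed 105 of the 165 Enpep-independent nuclei, among which 85 met that rule for marginal markers, 28 for spindle, 18 for intermediate and 7 for basal markers, some of them for more than 1 class. With at least 3 UMIs, without Scrublet doublets, with the MethFix matrix first and with a 5% mitochondrial limit it ran from 232 to 263.

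Against 502 genes higher in members, 1787 were higher in nuclei found in MethFix only, 1484 without members of another class, 1990 with a filter of 10 UMIs and 287 with a filter of 300 UMIs. The first 3 of these alternatives had smaller groups or fewer UMIs per gene. There a gene with 0 UMIs in the members could count as higher through the floor of 3 counts. Those 3 counts may include such genes and are not read as more genes being higher. Against 1250 genes lower, 1942 were lower without members of another class, 2274 with 6 UMIs and 3 genes, 2330 with the rule without Enpep, 2086 with the filter of 10 UMIs and 631 with that of 300 UMIs. The 2 filters tested 16123 and 6876 genes. For the rest the causes were not tested. TMM scaling moved every log2 ratio by -0.0035. The median share of members among neighbours was 90% with 10 neighbours and with 15 components.

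Over 9 alternatives, the log2 ratios of the 20 highest and 10 lowest genes kept their sign in all 270 cases, with Papss2 and Syt1, which had 0 UMIs in the members found in MethFix only, at the floor there, and 106 moved out of their interval, 28 of them among the 30 values from nuclei found in MethFix only. The sign of these genes was fixed by how they were chosen. No paired analysis was possible because the shared barcodes leave 1 sample and no result comes from a test, and for the same reason no replicate was left out. A gene with few UMIs cannot be told from one at 0 in the 15 Enpep-independent nuclei found in MethFix only (45632 UMIs), where a count of 0 allows up to 65.7 CPM.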
